A study of Homo sapiens with 6 samples.

Results

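The genes described here are 8 members of the Hippo pathway and its transcriptional arm, namely YAP1, WWTR1, TEAD1, TEAD4, LATS1, LATS2, AMOTL1 and AMOTL2. They were picked by name from the 20030 genes of the count table, and all 8 were found in it. CTGF and CYR61, 2 secreted matricellular proteins that are widely used as a readout of YAP activity, were read alongside them. The libraries come from HepG2, an established human hepatoma cell line. One group carried a control shRNA (sh-ctrl, 3 libraries) and the other an shRNA against KIF11 (sh-KIF11, 3 libraries). KIF11 is a mitotic kinesin that pushes spindle poles apart. The hairpins were delivered by lentivirus and transduced cells were selected with puromycin, so each group is a selected population of a single line. The labels give no age of the cultures and no time after transduction, and they do not state whether the 3 libraries of a group came from separate cultures. The p-values therefore measure the spread between these libraries, which may be technical.

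In the Hippo pathway a kinase cascade ends in LATS1 and LATS2, which phosphorylate the coactivators YAP (encoded by YAP1) and TAZ (encoded by WWTR1). Phosphorylated YAP and TAZ are held in the cytoplasm or degraded. When not phosphorylated, they enter the nucleus and bind DNA through the TEAD transcription factors. The angiomotins (AMOT, AMOTL1 and AMOTL2) are junction proteins that bind YAP and promote its phosphorylation by LATS. LATS2 and AMOTL2 are themselves transcribed in response to YAP and TEAD, as part of a negative feedback. In the liver the pathway restrains organ size, and its loss in hepatocytes leads to overgrowth and tumours. Most of this control acts on proteins, and the libraries measured mRNA alone.

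The 6 libraries held between 18167773 and 19583282 counts. A count of 0 allows up to 3 counts, or 0.145 to 0.178 CPM (read counts scaled to the effective library size), and this limit covers counting error only. KIF11 itself fell from 116 ± 5.01 to 68.8 ± 5.16 CPM (SD, n = 3 libraries each, log2 fold change -0.75, adjusted p = 4.22e-15, edgeR). CPM were scaled with TMM factors, which lay between 0.922 and 0.926 in sh-ctrl and between 1.08 and 1.09 in sh-KIF11. Under TMM the median change over the tested genes was 0.00 on the log2 scale, whereas scaling to library totals alone put it at 0.24, so the TMM changes below are differences from this median. The knockdown went with a wide shift. Of 12369 tested genes, 69.1% were called at an adjusted p under 0.05, with 34.4% higher and 34.7% lower in sh-KIF11. Library totals alone split the calls into 6621 higher and 2373 lower, against 4254 and 4294 with TMM. Hepatocyte markers were present in every library (10 of 10 above 1 FPKM), but 9 of 10 were called lower and their summed level ranged from 9091 to 9604 FPKM in sh-ctrl and from 3660 to 3966 FPKM in sh-KIF11. Fibroblast markers summed to at most 0.678 FPKM (THY1, DCN and FAP at 0 counts), with PDGFRB called lower (-1.16 on the log2 scale). Endothelial markers summed to at most 0.437 FPKM (TEK and CLEC14A at 0 counts), with VWF called higher (1.01). Of 6 leukocyte markers, 4 were called lower, PTPRC had at most 1 count in a library, and their sum ranged from 1708 to 2009 FPKM in sh-ctrl and from 378 to 481 FPKM in sh-KIF11. LYZ made up nearly all of that sum (1820 ± 153 FPKM in sh-ctrl), followed by CD68 (24.4 ± 1.44 FPKM), and the other 4 lay under 1 FPKM. The part of these shifts in the results below was not tested. In bulk RNA, fewer cells with a transcript and less of it per cell cannot be told apart.

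Of the 8 members, 7 were called, against a background of 69.1%. One of these, AMOTL1, passed the low-count filter only through the sh-KIF11 libraries and so had to differ. With at least 10 counts asked of every library it dropped out, which left 6 of 7 members called, 4 higher and 2 lower. YAP1, TEAD1, LATS2, AMOTL1 and AMOTL2 were higher in sh-KIF11, and TEAD4 and LATS1 were lower. In these 7 genes no sh-KIF11 library overlapped a sh-ctrl library, which was also so for 71.2% of all tested genes. The median log2 fold change of the members was 0.27, against 0.00 over all tested genes. With so few genes, the share of members called is not far from the background, and the account below turns on which genes moved and how.

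**Figure D1:**
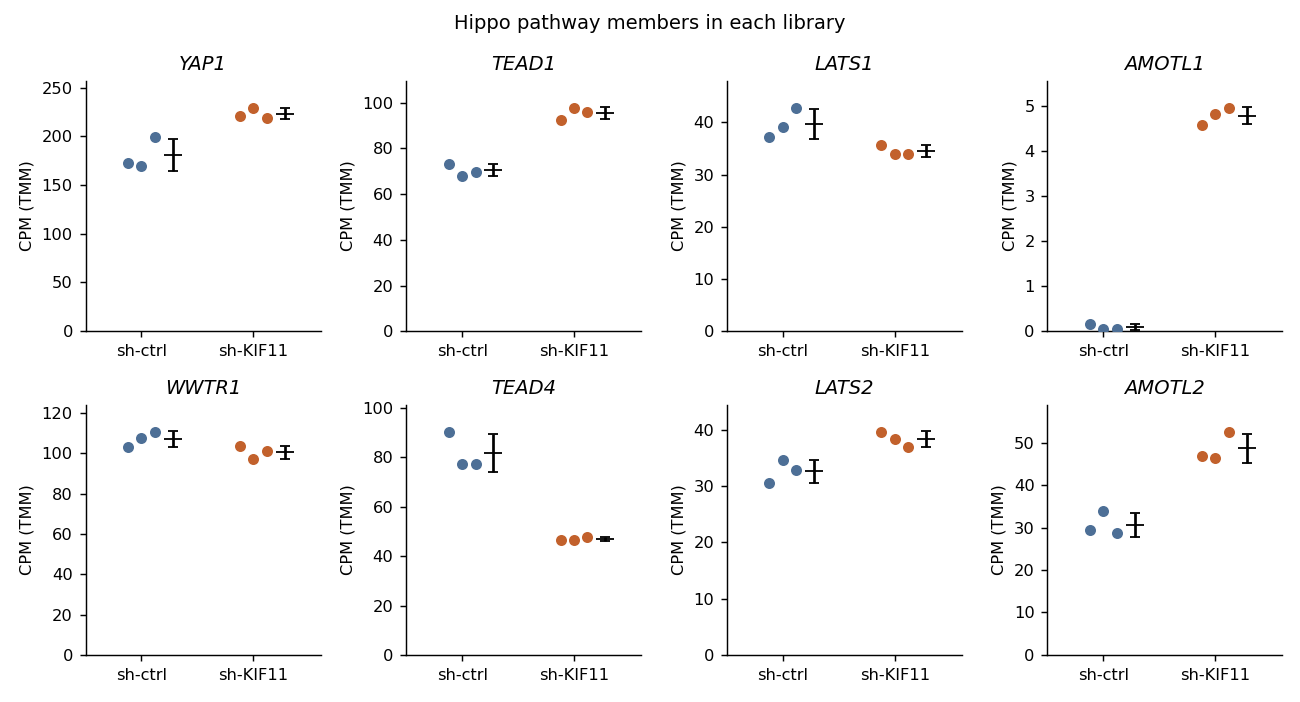
Level of each of the 8 Hippo members (vertical axis, CPM after TMM, from 0, with its own scale in each panel) in the 3 sh-ctrl libraries (blue) and the 3 sh-KIF11 libraries (orange), with the mean ± SD of each group in black. AMOTL1 goes from at most 0.168 CPM to between 4.59 and 4.97 CPM, TEAD4 drops to about 47 CPM, and WWTR1 is the one gene whose groups overlap.

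Between the coactivators, YAP1 rose and WWTR1 gave no call. YAP1 (Entrez 10413) lies on chromosome 11 of GRCh38, chr11:102110461-102233423, on the plus strand. It had read counts of 3079, 3065 and 3370 under sh-ctrl and of 4442, 4746 and 4316 under sh-KIF11. Scaled to CPM these were 173, 169.8 and 199.7 against 221, 229 and 219, so the lowest sh-KIF11 library stood above the highest sh-ctrl library. The mean of YAP1 went from 181 ± 16.5 to 223 ± 5.44 CPM (SD, n = 3 libraries each). Its log2 fold change was 0.30 (SE 0.0536, adjusted p = 3.57e-06, edgeR quasi-likelihood fit, Benjamini-Hochberg over every tested gene). The annotation has 1 antisense gene over YAP1, and RefSeq names 3 pseudogenes after it, so some of its counts could belong to these.

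WWTR1 (Entrez 25937, chr3:149517235-149736714, minus strand) gave counts of 1838, 1940 and 1869 with the control hairpin and of 2077, 2010 and 1993 with the KIF11 hairpin. On the CPM scale its libraries overlapped, at 103, 107.5 and 111 for sh-ctrl and 103.5, 97.1 and 101 for sh-KIF11. The fitted log2 fold change was -0.09 (SE 0.0526, adjusted p = 0.122, edgeR). The direction for WWTR1 depended on scaling, since library totals alone gave 0.14 with an adjusted p of 0.0162 in edgeR and limma on FPKM gave 0.08 with no call. On the per-length scale of FPKM, which carries no TMM factor, the level of YAP1 was 24.1 ± 2.34 in sh-ctrl and 33.3 ± 0.703 in sh-KIF11, and that of WWTR1 was 16.5 ± 0.448 and 17.5 ± 0.613.

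The TEAD genes moved in opposite directions. TEAD1 (Entrez 7003, chr11:12674591-12944483, plus strand) was counted 1308, 1229 and 1178 times under sh-ctrl and 1859, 2024 and 1893 times under sh-KIF11. In CPM the sh-ctrl libraries stood at 73.3, 68.1 and 69.8 and the sh-KIF11 libraries at 92.7, 97.8 and 95.98, with no overlap. TEAD1 rose from 70.4 ± 2.67 to 95.5 ± 2.60 CPM, or by 0.44 on the log2 scale (SE 0.0552, adjusted p = 3.65e-09, edgeR).

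TEAD4 (Entrez 7004, chr12:2959330-3040673, plus strand) had read counts of 1614, 1396 and 1304 under sh-ctrl and of 935, 961 and 941 under sh-KIF11. All 3 sh-KIF11 libraries lay between 46.4 and 47.7 CPM, far under the sh-ctrl values of 90.5, 77.4 and 77.3. TEAD4 fell to 0.574 of its sh-ctrl level, from 81.7 ± 7.61 to 46.9 ± 0.698 CPM (log2 fold change -0.80, SE 0.0638, adjusted p = 1.52e-14, edgeR). No other gene overlaps TEAD4 in the annotation, whereas TEAD1 overlaps 4.

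The remaining TEAD genes showed smaller differences. TEAD2 went from 33.1 ± 0.830 to 27.7 ± 2.88 CPM (log2 fold change -0.26, adjusted p = 0.00393, edgeR) and TEAD3 from 66.4 ± 2.02 to 56.3 ± 1.35 CPM (-0.24, adjusted p = 0.000606). Both calls were lost with library totals alone, at -0.03 and -0.01 on the log2 scale, and with limma on FPKM. The TEAD2 call was also lost without sh-KIF11 replicate 3 (adjusted p = 0.0587). VGLL4, a TEAD cofactor that competes with YAP, rose by 0.35 on the log2 scale (adjusted p = 7.05e-07, edgeR). The other VGLL genes were not tested, since VGLL1 and VGLL2 had no counts and VGLL3 gave counts of 1, 0 and 1 with the control hairpin and of 10, 2 and 6 with the KIF11 hairpin.

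The make-up of the TEAD mRNA pool differed between the groups. TEAD1 made up 14.2%, 14.5% and 14.7% of the summed TEAD FPKM under sh-ctrl and 23.7%, 24.96% and 24.5% under sh-KIF11. TEAD4 made up 51.2% ± 2.09 in sh-ctrl and 39.1% ± 1.34 in sh-KIF11, and it remained the largest of the 4 TEAD genes in every library. The share of TEAD3 was 24.6% ± 1.67 and 26.3% ± 0.797, and that of TEAD2 was 9.74% ± 0.363 and 10.2% ± 1.30, with overlapping libraries for TEAD2 and TEAD3. The sum of the 4 genes was 54.2 ± 3.004 FPKM in sh-ctrl and 48.1 ± 0.375 FPKM in sh-KIF11. FPKM summed over all genes was also lower, at 329624 to 333768 in sh-ctrl and 292628 to 295314 in sh-KIF11. The TEAD sum thus fell by about as much as the whole, and its fall depends on the scaling. The shares of TEAD1 and TEAD4 and the sum each gave an exact permutation p of 0.1 (two-sided, 3 against 3), the smallest that this design allows. These shares were chosen after the values of the genes had been seen.

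**Figure D2:**
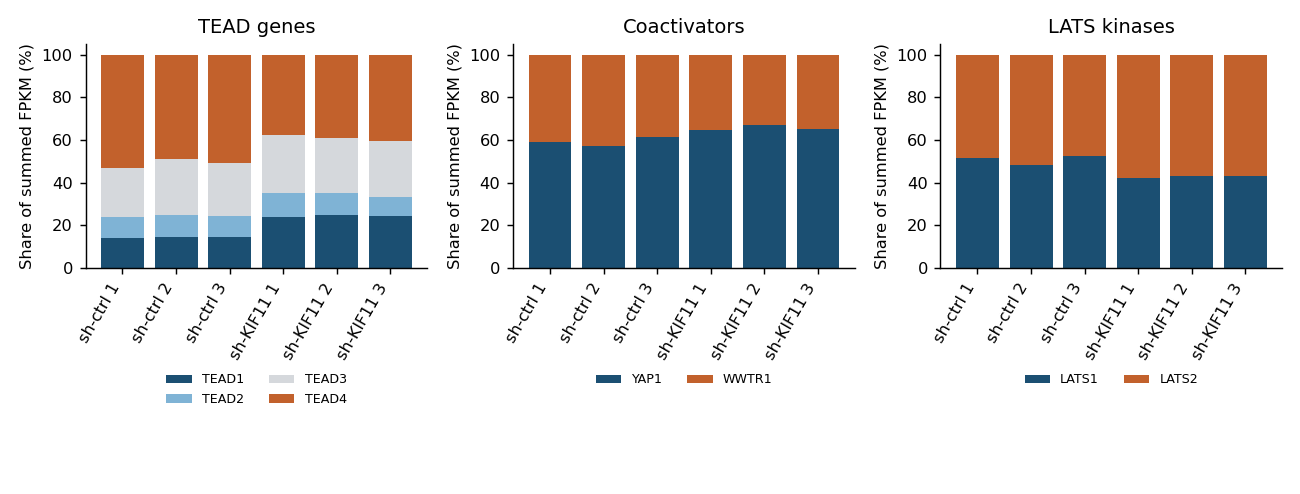
Share of each gene in the summed FPKM of its family (vertical axis, percent, from 0) in each of the 6 libraries, as stacked bars, for the 4 TEAD genes, the coactivators YAP1 and WWTR1, and the kinases LATS1 and LATS2. The TEAD1 band widens from about 14% to about 24%, YAP1 goes from 59.2% to 65.5% of the coactivator sum, and LATS1 from 50.8% to 42.8% of the LATS sum.

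The LATS kinases, which phosphorylate YAP and TAZ, also went apart. LATS1 (Entrez 9113, chr6:149658153-149718256, minus strand) was counted 664, 706 and 722 times under sh-ctrl and 717, 701 and 669 times under sh-KIF11. In CPM this was 37.2, 39.1 and 42.8 against 35.7, 33.9 and 33.9, so the groups were separated by a narrow gap. LATS1 was 39.7 ± 2.82 CPM in sh-ctrl and 34.5 ± 1.06 CPM with the KIF11 hairpin (log2 fold change -0.20, SE 0.0738, adjusted p = 0.0146, edgeR). This call was not stable. It was lost without sh-ctrl replicate 3 (adjusted p = 0.0545), without sh-KIF11 replicate 2 (0.0562) and with upper-quartile factors (0.135), and library totals alone turned the value to 0.03 (0.734).

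LATS2 (Entrez 26524, chr13:20973032-21061547, minus strand) had read counts of 545, 625 and 553 under sh-ctrl and of 796, 794 and 729 under sh-KIF11. All 3 sh-KIF11 libraries (39.7, 38.4 and 37.0 CPM) stood above all sh-ctrl libraries (30.6, 34.6 and 32.8 CPM). LATS2 rose from 32.7 ± 2.04 to 38.3 ± 1.35 CPM (log2 fold change 0.23, SE 0.0741, adjusted p = 0.00568, edgeR). Part of the gene overlaps its antisense RNA LATS2-AS1, and the strand setting of the counting is not given in the sources used here.

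Both angiomotins among the members rose. AMOTL2 (Entrez 51421, chr3:134355874-134375479, minus strand) gave counts of 523, 613 and 483 with the control hairpin and of 942, 959 and 1038 with the KIF11 hairpin. The groups were well separated, at 29.3, 34.0 and 28.6 CPM against 47.0, 46.3 and 52.6 CPM. AMOTL2 rose 1.59-fold, from 30.6 ± 2.91 to 48.6 ± 3.47 CPM (log2 fold change 0.67, SE 0.0766, adjusted p = 4.31e-10, edgeR).

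AMOTL1 (Entrez 154810, chr11:94706431-94876753, plus strand) was barely detected in sh-ctrl, with 3, 1 and 1 counts, and had 92, 100 and 98 counts in sh-KIF11. The sh-KIF11 libraries held 4.80 ± 0.194 CPM. From 5 counts in all sh-ctrl libraries and 290 in all sh-KIF11 libraries, the normalized ratio was 50.6, with an exact 95% counting interval from 21.4 to 157. This interval covers counting error only. The fitted log2 fold change was 5.57 (SE 0.380, adjusted p = 1.33e-16, edgeR), a size that depends on the prior count. AMOTL1 passed the low-count filter through the sh-KIF11 libraries alone, so a difference in this direction was built into its being tested. All its sh-ctrl libraries were under the filter level, which was so for 329 of the 12369 tested genes. Even after the rise AMOTL1 was a minor transcript, at 0.350 ± 0.0284 FPKM beside 6.68 ± 0.582 FPKM for AMOTL2 in the same sh-KIF11 cells.

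The founding member of the family, AMOT, was also scarce, counted 10, 1 and 12 times under sh-ctrl and 25, 28 and 21 times under sh-KIF11 (log2 fold change 1.47, adjusted p = 0.00226, edgeR). AMOT needed the sh-KIF11 libraries to pass the low-count filter, since sh-ctrl replicate 2 was under its level. This favoured a rise in its being tested. Leaving out sh-ctrl replicate 2, which had the single count, brought the AMOT value to 0.94. AMOTL2 thus made up 98.7% ± 0.882 of the angiomotin FPKM in sh-ctrl and 93.3% ± 0.499 in sh-KIF11, and the family sum went from 3.73 ± 0.337 to 7.16 ± 0.593 FPKM.

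**Figure D3:**
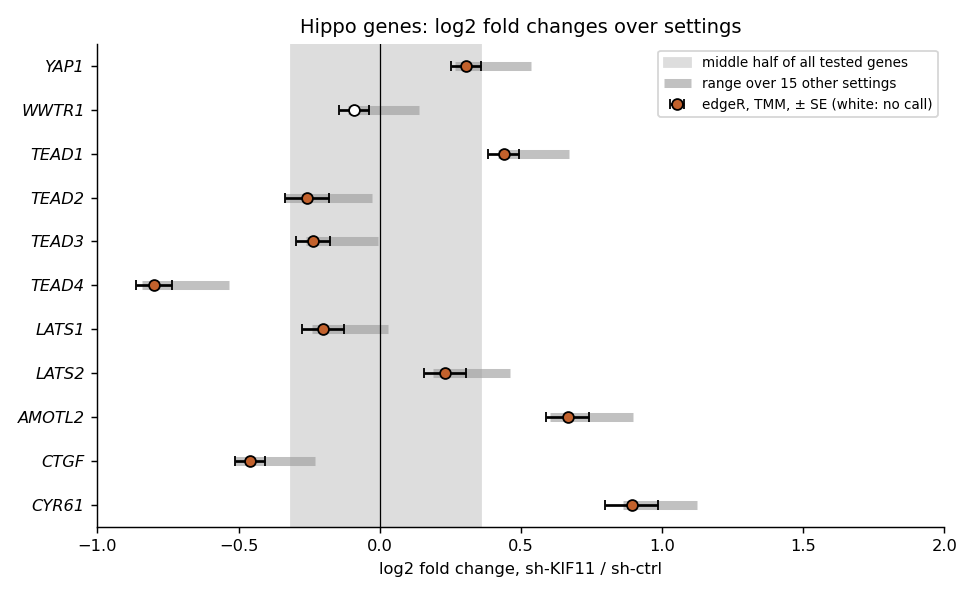
Log2 fold change of each gene, sh-KIF11 over sh-ctrl (horizontal axis), from edgeR with TMM (points, ± SE, white where no call was made), with grey bars for the range over 15 other settings and a grey band for the quartiles of all tested genes, -0.31 to 0.36. TEAD4 and CTGF stay to the left of 0 in all settings and YAP1, TEAD1, LATS2, AMOTL2 and CYR61 to the right, while the bars of WWTR1 and LATS1 cross 0; AMOTL1 (5.57) is off the scale and not drawn.

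The question whether the genes of a pair moved by different amounts does not depend on how the libraries are scaled. It was put to 4 pairs as the log2 ratio of their CPM within each library. This does not take out a trend of the changes with transcript length, which is described below. For TEAD1 over TEAD4 the ratio went from -0.21 ± 0.0818 to 1.02 ± 0.0439, a difference of 1.23 (SE 0.0536). For YAP1 over WWTR1 it went from 0.75 ± 0.0955 to 1.15 ± 0.0777, a difference of 0.40 (SE 0.0711). For LATS1 over LATS2 it went from 0.28 ± 0.104 to -0.15 ± 0.0278, a difference of -0.43 (SE 0.0623). Since CPM carries transcript length, only the difference can be read from these ratios, and in FPKM LATS1 stood at 1.04 ± 0.0922 of LATS2 in sh-ctrl and at 0.749 ± 0.0118 in sh-KIF11. AMOTL1 over AMOTL2 differed by 3.99 (SE 0.293), a value that was 4.77 with a prior count of 0.5 and 1.25 when taken from log2(FPKM + 0.1), which changes both the scale and the pseudocount. In each of the 4 pairs the sh-ctrl and sh-KIF11 libraries were fully separated, and the exact permutation test (two-sided) gave p = 0.1 and, adjusted over the 4 pairs, 0.1, the smallest possible. For AMOTL1 over AMOTL2 this was largely built in, since AMOTL1 passed the low-count filter through the sh-KIF11 libraries alone. The genes of the other pairs were chosen with earlier results known. Among all tested genes taken singly, 71.2% showed no overlap either, so these separations are not particular to the pairs. Per length, TEAD1 stood at 0.284 ± 0.0152 of TEAD4 in sh-ctrl and at 0.625 ± 0.0153 in sh-KIF11, in FPKM.

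In order of FPKM in sh-ctrl, CTGF came first (81.9 ± 3.57), followed by TEAD4 (27.8 ± 2.61), YAP1 (24.1 ± 2.34), WWTR1 (16.5 ± 0.448), TEAD1 (7.85 ± 0.303) and CYR61 (4.73 ± 0.0349). LATS1 (3.92 ± 0.261), LATS2 (3.798 ± 0.273) and AMOTL2 (3.69 ± 0.368) followed, and AMOTL1 was last. TEAD4 and YAP1 overlapped between libraries, as did LATS1, LATS2 and AMOTL2, so these neighbours have no fixed order. In sh-KIF11, YAP1 (33.3 ± 0.703) stood above TEAD4 (18.8 ± 0.784), and AMOTL2 (6.68 ± 0.582) and LATS2 (5.05 ± 0.205) stood above LATS1 (3.78 ± 0.0992).

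The output genes CTGF and CYR61 went in opposite directions. CTGF (CCN2, Entrez 1490, chr6:131948176-131951373, minus strand) was counted 3751, 4209 and 3659 times under sh-ctrl and 3452, 3280 and 2959 times under sh-KIF11. In CPM this was 210.3, 233 and 217 against 172, 158.5 and 150.0, with no overlap. CTGF fell to 0.728 of its sh-ctrl level, from 220.1 ± 11.8 to 160.2 ± 11.1 CPM (log2 fold change -0.46, SE 0.0533, adjusted p = 5.37e-10, edgeR). With library totals alone the CTGF change was -0.23 and still called.

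CYR61 (CCN1, Entrez 3491, chr1:85580761-85583962, plus strand) had read counts of 206, 205 and 197 under sh-ctrl and of 403, 461 and 430 under sh-KIF11. Its sh-ctrl libraries were close together at 11.6, 11.4 and 11.7 CPM, and the sh-KIF11 libraries reached 20.1, 22.3 and 21.8 CPM. CYR61 rose 1.86-fold (log2 fold change 0.89, SE 0.0928, adjusted p = 3.10e-11, edgeR). Even so, CTGF remained far above CYR61 per length, at 69.1 ± 4.81 FPKM beside 9.72 ± 0.403 FPKM in sh-KIF11.

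In the edgeR fit with TMM, CTGF was the only target called lower, and 4 tested targets gave no call. A list of 22 YAP/TAZ target genes, which includes LATS2, AMOTL2, CTGF and CYR61, had 18 tested genes, of which 13 were higher (against 34.4% of all tested genes) and 1, CTGF, was lower (against 34.7%). Without those 4 genes, 14 were tested, 10 were higher and none was lower, with a median log2 fold change of 0.52. By DESeq2, 12 genes of the full list were higher and 1 was lower. With at least 10 counts asked of every library, MYOF dropped out and 12 were higher. IGFBP3, NT5E, ARHGEF17 and NUAK2 gave no call, and FOXF2, CCDC80, TGFB2 and RBMS3 had too few counts to test. PTPN14, called higher, stands in both this list and the list of upstream genes below.

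ANKRD1, a nuclear ankyrin-repeat protein, combined a high level with a large change. It gave counts of 997, 1024 and 1117 with the control hairpin and of 4483, 5078 and 4981 with the KIF11 hairpin, and every sh-KIF11 library was above 3 times the sh-ctrl values in CPM (55.9 to 66.2 against 223 to 253). ANKRD1 rose from 59.6 ± 5.71 to 240.4 ± 15.2 CPM (log2 fold change 2.01, SE 0.0597, adjusted p = 6.25e-29, edgeR). In FPKM it went from 21.1 ± 1.54 to 91.9 ± 6.96, past CTGF in the sh-KIF11 cells.

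Other targets rose from a low base. MYOF, a membrane repair protein, was counted 19, 18 and 5 times under sh-ctrl and 340, 358 and 413 times under sh-KIF11 (log2 fold change 4.52, adjusted p = 1.14e-23, edgeR). FJX1, a secreted factor, had 27, 32 and 25 counts against 309, 293 and 276 (3.18, adjusted p = 1.40e-21). AXL, a receptor tyrosine kinase, had 41, 55 and 54 counts against 229, 254 and 224 (2.04, adjusted p = 7.61e-16). In each of these 3 genes the lowest sh-KIF11 library had several times the counts of the highest sh-ctrl library. The low-count filter asks for 3 libraries at a set level, and sh-ctrl replicate 3, with 5 counts of MYOF, was under it. MYOF thus needed the sh-KIF11 libraries to be tested, which favours a rise. GADD45A, a stress-response gene that is also induced by p53, went from 46.7 ± 5.02 to 75.96 ± 1.78 CPM (0.70, adjusted p = 1.61e-12).

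**Figure D4:**
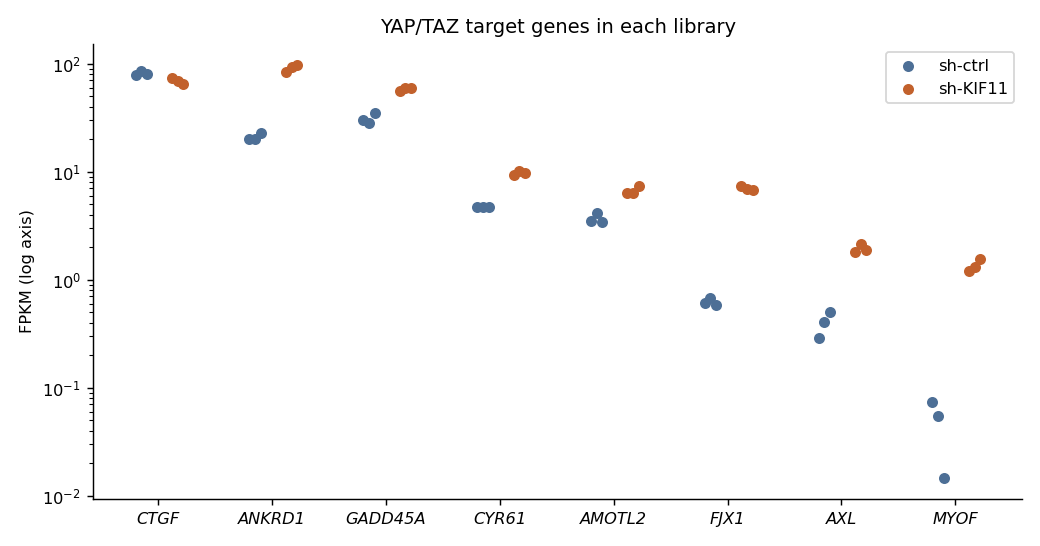
FPKM (vertical log axis) of 8 YAP/TAZ target genes in each library, sh-ctrl in blue and sh-KIF11 in orange. CTGF alone is lower in sh-KIF11, while ANKRD1, GADD45A, CYR61, AMOTL2, FJX1, AXL and MYOF are higher in every sh-KIF11 library.

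The promoters of these genes were read for the core of the TEAD binding motif, GGAATG, which reads CATTCC when it lies on the opposite strand and cannot overlap it, in a window from 250 bases before to 50 after the transcription start, with sequences from RefSeq (GRCh38.p14). At least 1 copy stood in 14% of 35116 promoters. In the target list it stood in 9 of 18 promoters (16 genes matched), in the upstream genes in 8 of 50 promoters (36 genes matched), and among the members in 3 of 9 promoters (6 genes matched). CTGF had 3 copies, as did WTIP among the upstream genes, and 0.128% of all promoters had 3 or more. The sequences below are given 5′ to 3′ on the strand of the gene with the motif in capitals. They show the one target called lower, a target that rose strongly, and the members with a copy. The CTGF stretch is chr6:131951453-131951552 (minus), those of ANKRD1 are chr10:90921290-90921319 and chr10:90921198-90921227 (minus, the latter inside an annotated ANKRD1 exon), AMOTL2 is chr3:134374499-134374528 (minus, inside an AMOTL2 exon) and LATS2 is chr13:21061560-21061589 (minus). The YAP1 stretch is chr11:102110273-102110302 (plus), which overlaps an annotated exon of another gene, AP001527.2.
CTGF: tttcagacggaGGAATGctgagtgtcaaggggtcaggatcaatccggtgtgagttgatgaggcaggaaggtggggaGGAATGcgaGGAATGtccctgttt
ANKRD1 distal: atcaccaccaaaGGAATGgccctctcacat
ANKRD1 proximal: gacactgagtctGGAATGaaaattcacctg
AMOTL2: ctgaaactctcaCATTCCtggcatagcagc
LATS2: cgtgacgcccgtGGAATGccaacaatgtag
YAP1: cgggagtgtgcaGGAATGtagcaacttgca

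The motif was thus present in the target called lower and in targets that rose. It was also present in NUAK2, which gave no call, and in FOXF2 and TGFB2, which had too few counts to test. No promoter sequence was matched for CYR61. The match is a description of the letters, since binding was not measured here.

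Upstream of the members, the other pathway genes mostly rose. Of 47 listed genes 42 were tested, and 27 were higher (against 34.4% of all tested genes) and 5 lower (against 34.7%), with a median log2 fold change of 0.32. Among the kinases that can activate LATS in place of MST, 7 of 8 tested were higher and none was lower, including MAP4K5 (48.3 ± 4.26 to 76.2 ± 3.46 CPM, log2 fold change 0.66, adjusted p = 6.04e-12, edgeR). In the STRIPAK phosphatase complex, which counteracts the MST kinases, 9 of 10 were higher, with CTTNBP2NL from 11.2 ± 0.377 to 23.2 ± 1.33 CPM (1.06, adjusted p = 2.29e-13). Genes known to activate the cascade and genes known to counteract it were both among those that rose.

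The MST kinase cassette was mixed. MOB1B, a LATS coactivator, rose from 14.7 ± 1.59 to 27.7 ± 0.0988 CPM (log2 fold change 0.91, adjusted p = 2.98e-12, edgeR), and its paralogue MOB1A fell from 158.4 ± 7.99 to 118.6 ± 0.552 CPM (-0.42, adjusted p = 1.95e-09). The kinase gene STK4 was higher (0.53), and STK3 (0.15) and the scaffold SAV1 (0.13) gave no call. Of the scaffolds that recruit LATS, the KIBRA family genes WWC1 (0.33), WWC2 (0.38) and WWC3 (5.64 ± 0.322 to 9.25 ± 0.736 CPM, 0.71) were higher.

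Among junction and polarity genes, 5 of 7 tested were higher (against 34.4% of all tested genes) and none was lower (against 34.7%). They included DLG5 (0.65) and FAT1 (0.56), and also AMOT and FAT4, which rest on few counts. AMOT also needed the sh-KIF11 libraries to pass the low-count filter. FAT4, an atypical cadherin with at most 45 counts in a library, had a log2 fold change of 0.74 (adjusted p = 0.0247, edgeR) but lost its call under 7 of 15 settings. The 5 lower upstream genes, named after their values were seen, were AJUBA (-0.57), a LIM protein that restrains LATS, RASSF1 (-0.49), MOB1A, NF2 (-0.15, adjusted p = 0.0438, edgeR) and STRN4 (-0.13, adjusted p = 0.0388). The libraries of STRN4 overlapped. Leaving out sh-ctrl replicate 1 or 2 or sh-KIF11 replicate 2 or 3 brought the lower genes from 5 to 3. None of the 3 tested genes for the ligase and kinase that degrade YAP (BTRC, FBXW11 and CSNK1D) was called, against 69.1% of all tested genes. They lay at 0.12, -0.04 and 0.05 on the log2 scale.

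Transcript length moved with these counts. When the tested genes were split into 4 equal classes by transcript length, in the longest class (5.143 to 34.526 kb) 51.3% were higher and 21.2% lower in sh-KIF11, and in the shortest class (0.327 to 2.158 kb) 19.2% were higher and 51% lower. Of the upstream genes, 24 fell in the longest class, where 18 were higher and 1 was lower. Of the targets 7 fell there, with 6 higher. Of the members 5 fell there, 2 in the next longest class and 1 in the shortest. In the other 3 classes, from the shortest up, 19.2%, 27.4% and 40.2% of all genes were higher. Of the targets, 2 of 2, 3 of 5 and 2 of 4 were higher there. Of the upstream genes, 1 of 2, 2 of 4 and 6 of 12 were higher. Judged by the ratio of counts to FPKM, TEAD4 (lower) was the shortest member, at 2.71 kb beside 8.59 kb for TEAD1 (higher). LATS1, also lower, stood at 9.60 kb. The part of transcript length in the upstream and target counts was not tested. Its part in the changes of the members, their pair differences and the TEAD shares was not tested either.

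**Figure D5:**
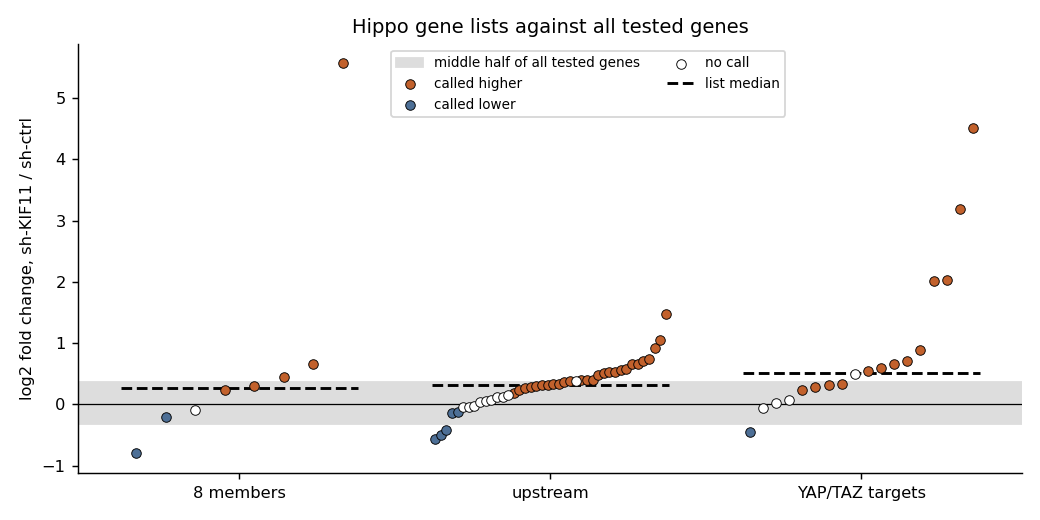
Log2 fold change, sh-KIF11 over sh-ctrl (vertical axis), of each tested gene in the 3 lists, sorted within each list, with calls in colour (orange higher, blue lower, white no call), list medians as dashed lines and the quartiles of all tested genes as a grey band. The medians are 0.27 for the 8 members, 0.32 for the 42 upstream genes and 0.52 for the 18 YAP/TAZ targets, and 4 targets lie above 2.

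The genes whose profile over the 6 libraries lay nearest to that of a coactivator were found by the root mean square difference of log2 CPM relative to the sh-ctrl mean of each gene. For YAP1 these were ATE1 (0.0148), PPIL4 (0.0164) and ARGLU1 (0.0191), and for WWTR1 they were ZNF747 (0.0211), NSL1 (0.0222) and RNF8 (0.0245).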

How the data were processed

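Poly(A) RNA of HepG2 cells (3 sh-ctrl and 3 sh-KIF11 libraries, TruSeq stranded kit) was sequenced with paired-end reads. The deposited counts are whole numbers per gene as the authors counted them, with no scaling. The deposited FPKM values, also made by the authors, are per transcript length and per library total. The submitters' processing notes name Trimmomatic, HISAT2 2.1.0, Cufflinks 2.2.1, HTSeq 0.9.1 and GRCh38, and the strand setting is not given in the sources used here. Columns headed only as shRNA were taken as sh-KIF11, since the labels list no other hairpin besides the control.

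Counts were fitted in R 4.3.3 with edgeR 4.0.16 (quasi-likelihood test, TMM, filterByExpr, group as the only term, Benjamini-Hochberg over 12369 genes, threshold 0.05, two-sided). The SE of a log2 fold change is its size divided by the square root of F. CPM carry TMM factors, with a prior count of 2 on the log2 scale. Levels of different genes were compared in FPKM only. Pairs of libraries from the same group had a chi-square of 2.67 to 8.11 per degree of freedom (84.0 to 102 for pairs from different groups). None was thus a re-read of another, and each counted as its own sample. This cannot show whether they came from separate cultures. The higher values within a group, 8.11 and 6.25, belonged to pairs with sh-ctrl replicate 3. Transcript lengths are those of the longest coding transcript in GENCODE 29, matched for 12237 of 12369 genes (98.9%).

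The members and the gene lists were chosen with earlier results of these data known. The text names the members, CTGF, CYR61, KIF11, the other TEAD genes, AMOT, the 6 called genes with the largest absolute log2 fold change in the upstream and in the target list, and for each coactivator the 3 genes of at least 1 CPM with the nearest profile. Other genes were named after their values were seen. Alternatives were RLE, upper-quartile and library-total scaling, no filter, a floor of 10 counts per library, a block for the replicate number, leaving out 1 library at a time, DESeq2 1.42.0 and limma 3.58.1 on log2(FPKM + 1) and log2(FPKM + 0.1). The procedure was tested on simulated data with changes planted in few genes, balanced between higher and lower. That setting lacks the wide shift seen here, so it does not check the scaling of the libraries.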

Additional observations from a re-analysis of the deposited data

How the results depend on the processing

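Counts of calls over all genes ranged from 7975 (of 12481 tested, without sh-KIF11 replicate 2) to 8994 (of 12369 tested, library totals alone), and the settings tested between 11605 and 16216 genes. Library totals alone called 6621 genes higher and 2373 lower, while limma on FPKM called 2489 (pseudocount 1) and 2505 (0.1) lower. Of the members, 1 in place of 2 was lower with upper-quartile factors, library totals alone and both limma settings, and 1 to 2 when a library was left out. Of the other TEAD and VGLL genes, 1 in place of 3 was called and 0 in place of 2 were lower with library totals alone and both limma settings, against 2 to 3 called and 1 to 2 lower when a library was left out, and 2 were higher with no filter. Lower upstream genes numbered 3 with upper-quartile factors, library totals alone and at least 10 counts, 2 in both limma settings, and 3 to 6 when a library was left out, against 5. With no filter 2 targets were lower. LATS1 turned to 0.029 with library totals alone, and WWTR1 to 0.14 with library totals alone and to 0.0797 and 0.0839 with limma at pseudocounts of 1 and 0.1. The cause of these changes was not tested, other than that library totals shift all genes upward. AMOTL1, AMOT and MYOF could not be fitted with at least 10 counts in every library. With limma on log2(FPKM + 1) their log2 fold changes were 0.42, 0.12 and 1.16, since the pseudocount exceeds their sh-ctrl levels.

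Same-numbered libraries did not deviate together (r across genes of 0.03, -0.0185 and -0.0025, against -0.0488 to 0.0528 for other pairs), so the numbers were not taken as a pairing. With the replicate block 8607 genes were called (4296 higher, 4311 lower), 7 members, 32 upstream genes and 14 targets, and the calls of the members, CTGF, CYR61, TEAD2, TEAD3, AMOT and the 6 genes with the largest changes in each list stayed as they were. The calls of other named genes were not compared one by one. At 3 libraries a group, a rise or fall of AMOTL1, AMOT or FAT4 rests on few counts.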

Other observations

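For 2 upstream genes the deposited tables differ. MOB4, a subunit of the STRIPAK complex, had 4 counts in all 6 libraries together. Its mean was nonetheless 9.74 ± 4.12 FPKM in sh-ctrl and 4.36 ± 3.95 FPKM in sh-KIF11, with overlapping libraries. CSNK1E, a kinase of the YAP phosphodegron, was counted 5, 15 and 9 times under sh-ctrl and 1, 6 and 0 times under sh-KIF11, but its mean was 12.1 and 16.7 FPKM. Neither gene passed the count filter, so neither enters the edgeR calls made with that filter, but both enter the counts of upstream genes with no filter and with limma on FPKM.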
